A study of Mus musculus with 8 samples.

Results

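Genes of B cells, of plasma cells and of IgA secretion were followed in the proximal small intestine of mice with and without the transcription factor Pdx1 in the gut epithelium. The 9 genes were taken by symbol from the annotation of the array: Jchain, Pigr, Mzb1, Pou2af1, Tnfrsf17, Cd79a, Cd79b, Ms4a1 and Cd22. They were read by 12 of the 45037 probe sets tested, out of 18193 named genes. The knockout group was 4 Pdx1flox/flox;VilCre male mice aged 6 months, and the control group was 4 male Pdx1flox/flox mice of the same age, so both groups carried the floxed alleles and the controls lacked only the Cre transgene. Cre was driven by a piece of the mouse villin 1 promoter, which is active in epithelium and not in lymphocytes, and it removed exon 2 of Pdx1, which encodes the homeodomain. Per the labels the samples are biological replicates from brothers of the same litter, without saying which mice share one. Each sample was the first 5 cm of gut after the stomach on 1 array, as whole tissue. In such bulk tissue fewer cells of a type and less RNA per cell cannot be told apart.

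B cells carry an antibody on their surface as the B cell receptor, which signals through the paired chains Cd79a and Cd79b. In the gut they gather in lymphoid follicles and Peyer's patches, where many switch to the IgA class. Plasma cells descended from them lie in the lamina propria and release IgA joined by the J chain, and the epithelial receptor Pigr carries this IgA across the enterocyte into the lumen. Pigr is thus the one of these genes known to be made by the cells in which Cre is active, while the others are known from B cells or plasma cells.

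The promoters of 6 of the 9 genes were taken from the RefSeq table of GRCm38.p6, and 3 are shown: those of the B cell genes Cd79a and Cd22, whose transcripts were high in the same mice, and that of the epithelial gene Pigr, whose transcript was nearly constant. Each is the 250 bases before the gene's start, printed 5′ to 3′ on the gene's own strand, with motif matches in capitals. Cd79a is chr7:24897247-24897496 on the plus strand, Cd22 is chr7:30879029-30879278 on the minus strand and Pigr is chr1:130826434-130826683 on the plus strand.
Cd79a: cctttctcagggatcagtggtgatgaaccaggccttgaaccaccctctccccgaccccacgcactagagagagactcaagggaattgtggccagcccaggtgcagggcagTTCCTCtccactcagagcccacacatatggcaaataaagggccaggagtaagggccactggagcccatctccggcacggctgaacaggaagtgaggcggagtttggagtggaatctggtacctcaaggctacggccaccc
Cd22: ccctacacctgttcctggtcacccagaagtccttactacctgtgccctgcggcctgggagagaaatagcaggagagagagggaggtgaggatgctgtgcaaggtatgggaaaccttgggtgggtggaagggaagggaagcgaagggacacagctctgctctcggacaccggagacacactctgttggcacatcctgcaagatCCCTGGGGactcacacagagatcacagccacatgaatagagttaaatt
Pigr: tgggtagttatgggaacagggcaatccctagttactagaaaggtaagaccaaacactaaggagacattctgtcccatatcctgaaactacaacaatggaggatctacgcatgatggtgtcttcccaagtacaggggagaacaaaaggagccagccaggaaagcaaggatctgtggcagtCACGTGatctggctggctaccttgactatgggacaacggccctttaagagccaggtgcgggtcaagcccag
Both strands were searched for 6 motifs, and no matches of different motifs overlapped. They were the octamer ATGCAAAT, to which Pou2af1 is recruited by its partner factors; the E-box CACGTG; CCCNNGGG, the palindrome of the B cell factor Ebf1; GAGGAA, the core of PU.1 sites; an NF-kB site; and an interferon element. Cd79a held the PU.1 core on the other strand, as TTCCTC, a motif found in 23.3% of the 32851 promoters of the same length. Cd22 held the Ebf1 palindrome, as CCCTGGGG (11.8% of promoters), and Pigr held the E-box (6.02%). The octamer was in 1.6% of promoters, the NF-kB site in 1.21% and the interferon element in 2.98%. Of the promoters not shown, that of Tnfrsf17 held TTCCTC and the interferon element, and those of Jchain and Pou2af1 held no match in this window.

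As a check of the deletion, the brighter probe set of Pdx1 read between 5.58 and 6.18 in the knockouts and between 8.16 and 8.98 in the controls. All arrays looked alike in general, with medians between 5.23 and 5.27 on the log2 scale and Pearson's r across probe sets between 0.990 and 0.996. The table gave no detection calls, so no gene could be called present or absent. Pax5, the factor that fixes B cell identity, read between 5.16 and 5.50, close to the array medians. The plasma cell markers were all measured.

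No gene of the set passed the test between knockout and control. In limma, 0 of the 12 probe sets had an adjusted p under 0.05, against 0.0422% of all probe sets (0.00444% higher and 0.0377% lower in the knockout), and 0 passed in an ordinary linear model. At an unadjusted p under 0.05 there was 1 of 12, the dimmer probe set of Cd22, against 7.13% of all probe sets. The knockout and control values overlapped in all 12, while they did not overlap in 4.43% of all probe sets. The differences, knockout minus control, ran from -0.03 to 0.64 on the log2 scale with a median of 0.19, and 10 of 12 were above 0, where 50% of all probe sets were. By gene, on the brighter probe sets, 7 of 9 were above 0 with a median of 0.11, where 51.6% of all genes were. All were read in the same 8 mice, so these values are not independent. Jchain, Mzb1 and Tnfrsf17 lay between -0.03 and 0.01, Pigr and Cd79a at about 0.10 and 0.11, and Pou2af1, Cd79b, Ms4a1 and Cd22 between 0.28 and 0.64 with wide intervals.

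**Figure D1:**
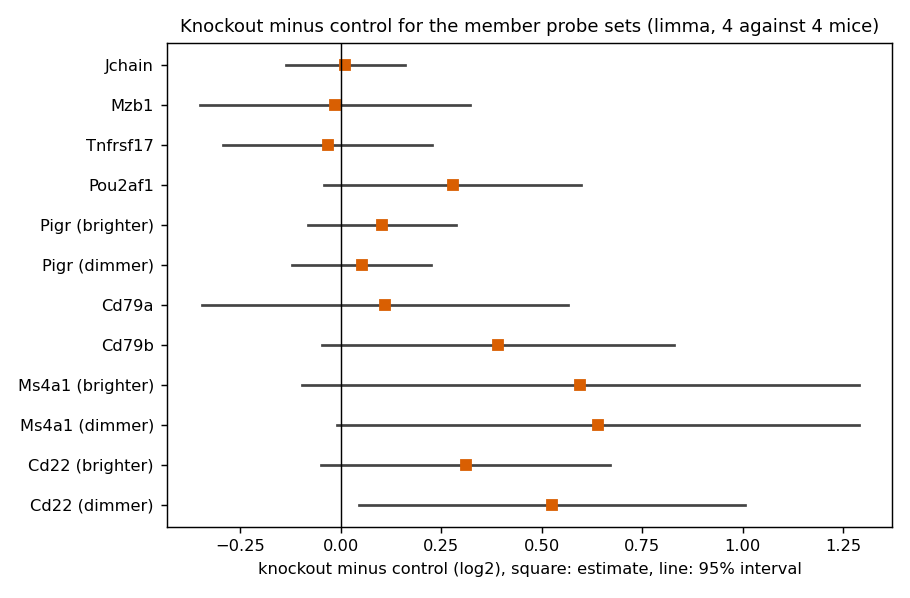
Knockout minus control for the 12 probe sets, in log2 units on the horizontal axis; squares are limma estimates and lines are 95% intervals, with 4 mice in each group. The intervals of 11 probe sets include 0, that of the dimmer Cd22 probe set runs from 0.045 to 1.00, and that of Jchain is the narrowest.

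Jchain encodes the small protein that links IgA into dimers and lets Pigr bind them. Its probe set read 13.45, 13.45, 13.51 and 13.55 in controls 1 to 4 and 13.56, 13.53, 13.54 and 13.38 in knockouts 1 to 4. The lowest and the highest array were both knockouts, and the remaining values lay between them. The means were 13.49 ± 0.048 in the control and 13.50 ± 0.082 in the knockout (SD, n = 4 each), a difference of 0.01 with a 95% interval from -0.14 to 0.16 (adjusted p = 0.984 in limma). Over all 8 mice Jchain spanned only 1.13-fold.

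Pigr encodes the polymeric immunoglobulin receptor of the enterocyte. On its brighter probe set the controls read 13.92, 14.03, 14.17 and 13.98 and the knockouts 14.15, 14.20, 14.21 and 13.95. Knockout 4 was as low as the lower controls, and the other knockouts lay within or just above the control range. The difference was 0.10 with a standard error of 0.083 and an interval from -0.08 to 0.29 (adjusted p = 0.833 in limma). The dimmer probe set gave 0.05, from -0.12 to 0.22 (adjusted p = 0.919 in limma). These values lie near the top of the table, whose highest value was 14.83, where an array can understate differences.

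Mzb1 is a chaperone of the endoplasmic reticulum that helps antibody folding and secretion. Its probe set read 9.46, 9.99, 9.94 and 10.18 in the controls and 10.06, 10.03, 9.80 and 9.62 in the knockouts. Control 1 was the lowest mouse and control 4 the highest, so every knockout value fell inside the control range. The difference was -0.02, with an interval from -0.35 to 0.32 (adjusted p = 0.990 in limma).

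Tnfrsf17 is the receptor BCMA, through which plasma cells receive survival signals. Its probe set read 6.68, 6.58, 6.77 and 7.07 in the controls and 6.89, 6.89, 6.55 and 6.64 in the knockouts. Control 4 was again the highest of the 8, and the groups overlapped throughout. The difference was -0.03, from -0.29 to 0.23 (adjusted p = 0.972 in limma).

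Pou2af1 is a coactivator of octamer-binding factors that both B cells and plasma cells use. Its probe set read 7.96, 8.38, 8.33 and 8.62 in the controls and 8.61, 8.90, 8.49 and 8.41 in the knockouts. Control 1 was the lowest and knockout 2 the highest, and control 4 lay above 3 of the 4 knockouts. The difference was 0.28, from -0.04 to 0.60 (adjusted p = 0.738 in limma).

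Cd79a and Cd79b are the signalling chains of the B cell receptor. Cd79a read 7.99, 8.22, 8.29 and 8.78 in the controls and 8.26, 9.02, 8.23 and 8.20 in the knockouts. Control 4 and knockout 2 stood above the other 6 mice. The difference was 0.11, from -0.35 to 0.57 (adjusted p = 0.939 in limma), and it was -0.088 without knockout 2. Cd79b read 7.36, 7.63, 7.42 and 7.997 in the controls and 7.64, 8.56, 7.78 and 7.99 in the knockouts. Control 4 was the highest control and knockout 2 the highest knockout here too, with knockout 4 level with control 4. The difference was 0.39, from -0.05 to 0.83 (adjusted p = 0.733 in limma).

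Ms4a1 encodes CD20, a surface protein of B cells that is lost in plasma cells. Its brighter probe set read 7.38, 7.29, 6.78 and 8.22 in the controls and 7.52, 8.67, 7.64 and 8.23 in the knockouts. Control 3 was the lowest mouse, knockout 2 the highest, and control 4 and knockout 4 were level. The span over the 8 mice was 3.72-fold, the widest of the 12 probe sets. The difference was 0.60 with a standard error of 0.31 and an interval from -0.10 to 1.29 (adjusted p = 0.739 in limma). The dimmer probe set read between 4.37 and 5.15 in the controls and between 4.66 and 6.20 in the knockouts, a difference of 0.64 (adjusted p = 0.703 in limma).

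Cd22 is an inhibitory coreceptor that binds sialic acid and dampens B cell receptor signals. Its brighter probe set read 7.24, 7.13, 7.04 and 7.48 in the controls and 7.15, 7.99, 7.41 and 7.58 in the knockouts. Knockout 2 was the highest, control 4 was the highest control, and knockout 1 was as low as the controls. The difference was 0.31, from -0.05 to 0.67 (adjusted p = 0.739 in limma). The dimmer probe set gave 0.52, from 0.045 to 1.00 (adjusted p = 0.684 in limma). It read below the array medians in all 4 controls and in 2 of the 4 knockouts, and was 6.01 in knockout 2.

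**Figure D2:**
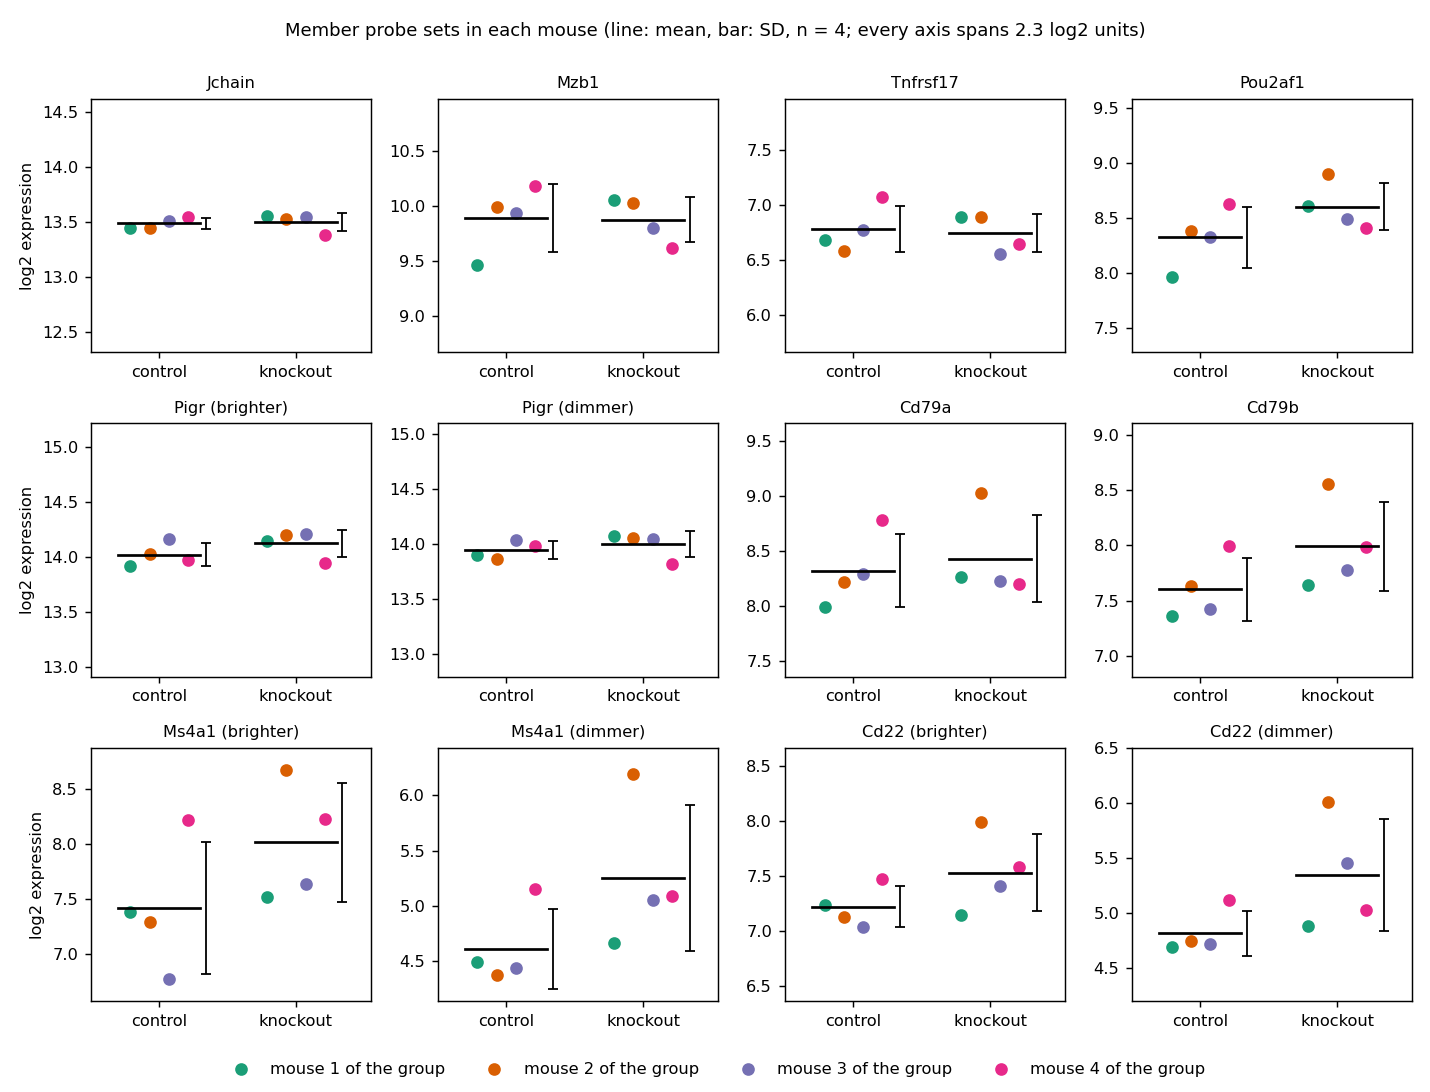
Log2 expression of the 12 probe sets in each mouse; points are mice coloured by their number within the group, lines are group means and bars are SD (n = 4 each), on axes of equal length. Jchain and Pigr stay nearly level, whereas control 4 and knockout 2 stand high in Cd79a, Cd79b, Ms4a1 and Cd22.

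The spread between mice of a group was widest for Ms4a1 and narrowest for Jchain among the 12 probe sets. The within-group SD, pooled over both groups, was 0.57 for the brighter probe set of Ms4a1, 0.37 for Cd79a, 0.35 for Cd79b and 0.28 for the brighter probe set of Cd22. All 6 probe sets of these 4 genes lay between the 95.3 and 99.2 percentiles of that SD over all probe sets, whose median was 0.13. Pou2af1 (0.25) and Mzb1 (0.26) came next, at percentiles 92.5 and 93.9, and Tnfrsf17 (0.19) was at 82.3. Pigr was at percentile 39.7 on its brighter probe set, and Jchain, with an SD of 0.067, was at 8.68. No test was made of these SDs. Bright probe sets vary less in general: the median SD was 0.078 for probe sets with a mean from 13 to 14, where Jchain lies, and 0.14 for those from 7 to 8, where Ms4a1 lies.

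**Figure D3:**
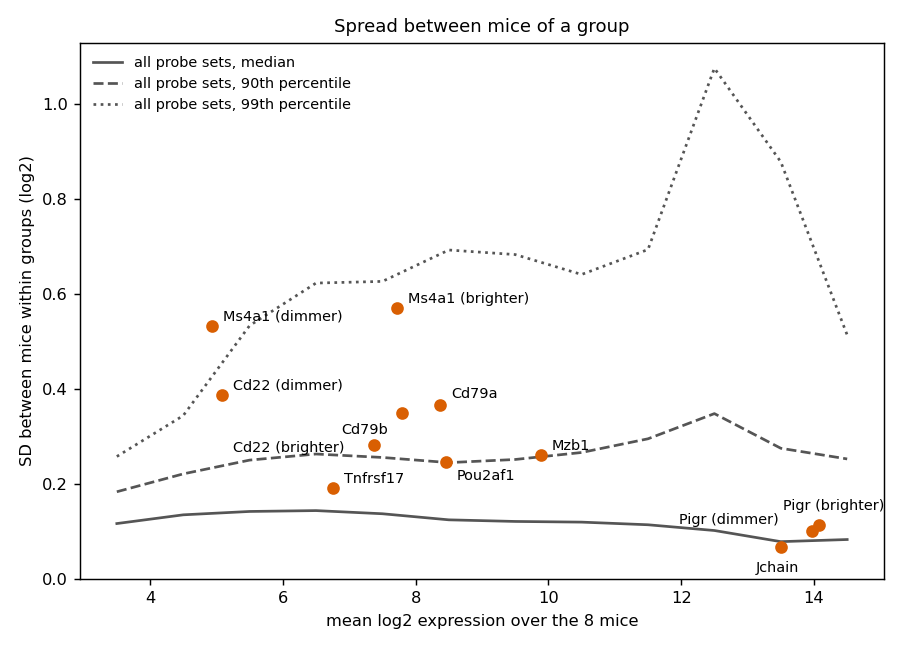
SD between mice within groups (log2, pooled over both groups) against the mean log2 expression over the 8 mice; points are the 12 probe sets and lines are the median, 90th and 99th percentiles of all probe sets in steps of 1 log2 unit. The probe sets of Ms4a1, Cd22, Cd79a and Cd79b lie above the 90th percentile line, Mzb1 and Pou2af1 lie just above it, and Jchain lies just under the median.

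The same mice were high in all of the B cell surface genes. Control 4 was the highest control and knockout 2 the highest knockout in 6 of 6 probe sets of Cd79a, Cd79b, Ms4a1 and Cd22. Over all probe sets 7.86% had that order, 27.7% had control 4 and 20.4% had knockout 2 as the highest of its group. Knockout 2 was the highest of all 8 mice in 6 of 6, against 7.83% of all probe sets. Knockout 1 was the lowest knockout in 5 of 6, against 22.5%, and control 3 the lowest control in 2 of 6, against 30.5%. The 6 probe sets read 4 genes in the same 8 mice, so they are not independent. Of the plasma cell genes Jchain, Mzb1 and Tnfrsf17, 3 of 3 had control 4 as the highest control and 0 had knockout 2 as the highest knockout. Their highest knockout was knockout 1, by small margins over knockout 2. Knockouts 1 and 2 read 6.888 and 6.886 in Tnfrsf17, 10.06 and 10.03 in Mzb1 and 13.56 and 13.53 in Jchain. The wider list of 23 plasma cell and secretion genes did have its highest mean levels in control 4 (8.81) and knockout 2 (8.77), with knockout 2 the highest knockout in 9 of 23 genes. Knockout 4 was the lowest knockout in 6 of the 12 probe sets, those of Jchain, Mzb1, Pou2af1, Cd79a and both of Pigr, against 24.8% of all probe sets. It was the second highest knockout in Cd79b and Ms4a1. Without control 4 and knockout 2, a pair left out after the values were seen, the differences were 0.64 for Ms4a1, 0.34 for Cd79b, 0.24 for Cd22 and 0.07 for Cd79a, and 0 probe sets of the set passed. Without knockout 2 alone they were 0.38 for Ms4a1, 0.20 for Cd79b and 0.16 for Cd22. Pou2af1 was 0.16 without control 1 and 0.18 without knockout 2.

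Most, but not all, other genes of B cell identity showed the same order of mice. In that list 22 of 24 genes were measured, and 0 passed in limma in either direction. Of the 20 that are not among the 9 genes, 18 had values above 0, with a median of 0.26. Over all genes the median was 0.0046 and 51.6% were above 0. In 13 of 20 control 4 and knockout 2 were the highest of their groups, against 7.86% of all probe sets. These 20 genes, too, were read in the same 8 mice and are not independent. Exceptions included Pax5, highest in control 4 and knockout 1, and Pou2f2, highest in control 3 and knockout 2. Bach2 was highest in control 3 and knockout 4 on its brightest probe set. Fcmr, the receptor for IgM, read 6.99, 7.04, 6.59 and 7.51 in the controls and 6.61, 8.42, 7.33 and 7.63 in the knockouts. Cxcr5, the chemokine receptor that leads B cells into follicles, read between 4.89 and 5.44 in the controls and was 6.46 in knockout 2 and 4.89 in knockout 1. By smallest p the list's leading genes were the octamer-binding factor Pou2f2 at 0.28 (adjusted p = 0.537 in limma), the repressor Bach2 at -0.26, the factor Spib at 0.35 and the chemokine receptor Ccr6 at 0.39. The probe sets of Bach2 disagreed: its brightest gave -0.26, and the other probe sets gave 0.59 and 0.34.

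**Figure D4:**
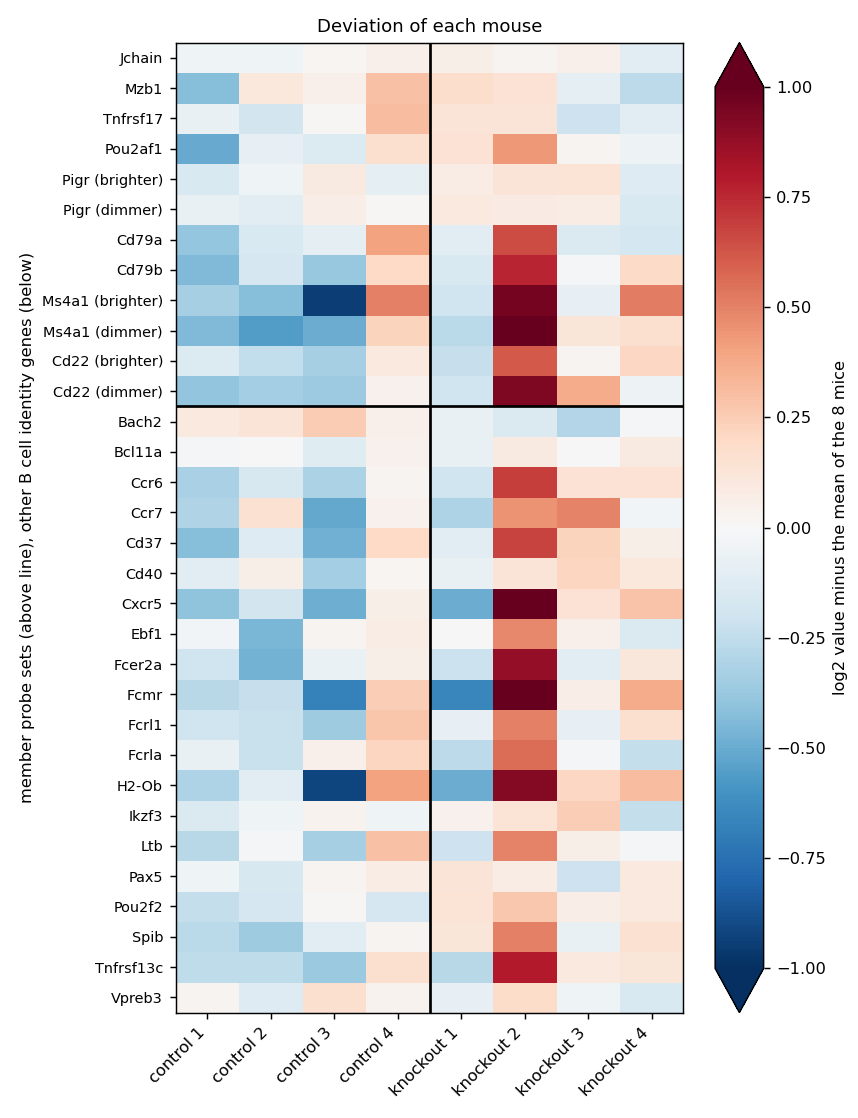
Deviation of each mouse from the mean of the 8 mice (log2, colour, with colours saturated beyond 1) for the 12 probe sets and for 20 other genes of B cell identity, each by its brightest probe set. The column of knockout 2 is red in most B cell rows, control 4 is paler red, and the rows of Jchain and Pigr are pale throughout.

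The genes of the receptor, its coreceptors and its signalling partners, with Cd79a, Cd79b and Cd22 among them, ranged widely in their spread between mice. Their median within-group SD was 0.19, and Pik3ap1, an adaptor for PI3-kinase, had the widest at 0.63, above that of Ms4a1. Of 24 genes of the B cell receptor and its coreceptors 21 were measured, 0 passed in limma, and 17 were above 0 with a median of 0.17. Leading by p were the phosphatase Ptpn6 at 0.19 (adjusted p = 0.630 in limma), the signalling protein Malt1 at 0.21, the phosphatase Ptprc at 0.26 and Cd79b. In 2 of the 21 genes, Ptpn6 and Malt1, the knockout values did not overlap the controls, against 4.43% of all probe sets. The dimmer probe sets of both genes did overlap, with differences of 0.11 for Ptpn6 and 0.11 and -0.02 for Malt1. All of the leading genes but Cd79b are known from other leukocytes as well. Among 18 genes outside the 9, 14 were above 0 with a median of 0.16, where 51.6% of all genes were above 0. Control 4 and knockout 2 were both highest in 7 of the 18, against 7.86% of all probe sets.

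In the plasma cell and secretion list all 23 genes were measured, 0 passed in limma, and 12 were above 0 with a median of 0.0072. Leading by p were Fkbp11, Derl3, Tent5c and Prg2, all with values below 0. Fkbp11, a folding enzyme, was at -0.30 (adjusted p = 0.660 in limma), while its dimmer probe sets gave -0.008 and 0.12. Derl3, which helps export misfolded proteins, was at -0.24. Tent5c, which lengthens poly(A) tails of antibody transcripts, was at -0.23, and its dimmer probe set gave -0.11. Prg2, an eosinophil granule protein that plasma cells also make, was at -0.45. Its means of 4.50 in the control and 4.05 in the knockout were below the array medians, and knockout 1 was lowest at 3.29. Xbp1 and Sdc1 of this list are known to be made in gut epithelium too, and several of the secretion genes serve exocrine pancreas cells. The exocrine pancreas markers had a mean level of 13.67, 13.46, 11.97 and 14.20 in controls 1 to 4 and 12.82, 12.79, 13.70 and 12.87 in knockouts 1 to 4, with all 12 below 0. Their part in the secretion genes was not tested.

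Of 20 listed immunoglobulin chains 5 were measured, and 0 passed in limma. The IgA heavy chain had a within-group SD between 0.069 and 0.10. Igha had 3 probe sets with differences between 0.06 and 0.08. The brightest read 14.61, 14.75, 14.78 and 14.75 in the controls and 14.82, 14.83, 14.79 and 14.69 in the knockouts. Its difference was 0.06, from -0.09 to 0.21 (adjusted p = 0.895 in limma), and it holds the highest value of the table, so differences between mice may be understated. Control 1 was the lowest control and knockout 4 the lowest knockout on all 3, an order of lowest mice found singly in 21.5% and 24.8% of all probe sets.

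The within-group SD ran from 0.047 to 0.55 over the probe sets of the IgM heavy chain, from 0.20 to 0.58 for Igk and from 0.29 to 0.58 for Iglv1, with no test of these SDs. Ighm had 11 probe sets, 10 of them above 0 against 50% of all probe sets, with a median of 0.42. None passed the adjusted threshold, and 3 had an unadjusted p under 0.05 in limma, against 7.13% of all probe sets. Knockout 2 was the highest knockout on 8 of the 11, against 20.4%. These 11 carry the same gene symbol and were read in the same 8 mice, so they are not independent. A probe set of Ighm with values near those of Ms4a1 in pattern read 8.63, 8.64, 8.18 and 9.35 in the controls and 8.91, 9.81, 9.19 and 9.29 in the knockouts. The brightest probe set of Ighm did not share that pattern, with a difference of 0.03. The kappa light chain symbol Igk had 4 probe sets, and the brightest read 10.40, 10.95, 10.93 and 11.40 in the controls and 10.88, 10.32, 10.53 and 9.69 in the knockouts. Knockout 4 was the lowest mouse and control 4 the highest on it, a difference of -0.56 (adjusted p = 0.701 in limma). The dimmer probe sets of Igk gave -0.47, -0.10 and 0.04. Knockout 4 was the lowest knockout on 2 of the 4, against 24.8% of all probe sets. Control 4 was the highest control on 2 of the 4, against 27.7%. The lambda chain Iglv1 had 3 probe sets with differences from -0.41 to 0.19. Knockout 4 was the lowest knockout on all 3, against 24.8% of all probe sets. Ighg3, an IgG heavy chain, read between 6.3997 and 7.28 in the controls and 6.81, 7.95, 6.92 and 7.31 in the knockouts on its brightest probe set. Control 4 and knockout 2 were the highest of their groups on it, with a difference of 0.54 (adjusted p = 0.720 in limma). The dimmer probe sets of Ighg3 gave -0.12, 0.05 and -0.02. Of its 4 probe sets, 1 had both mice as the highest of their groups, against 7.86% of all probe sets. Immunoglobulin genes share long stretches of sequence and differ between antibody clones, so such a probe set may read several genes or only some clones.

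**Figure D5:**
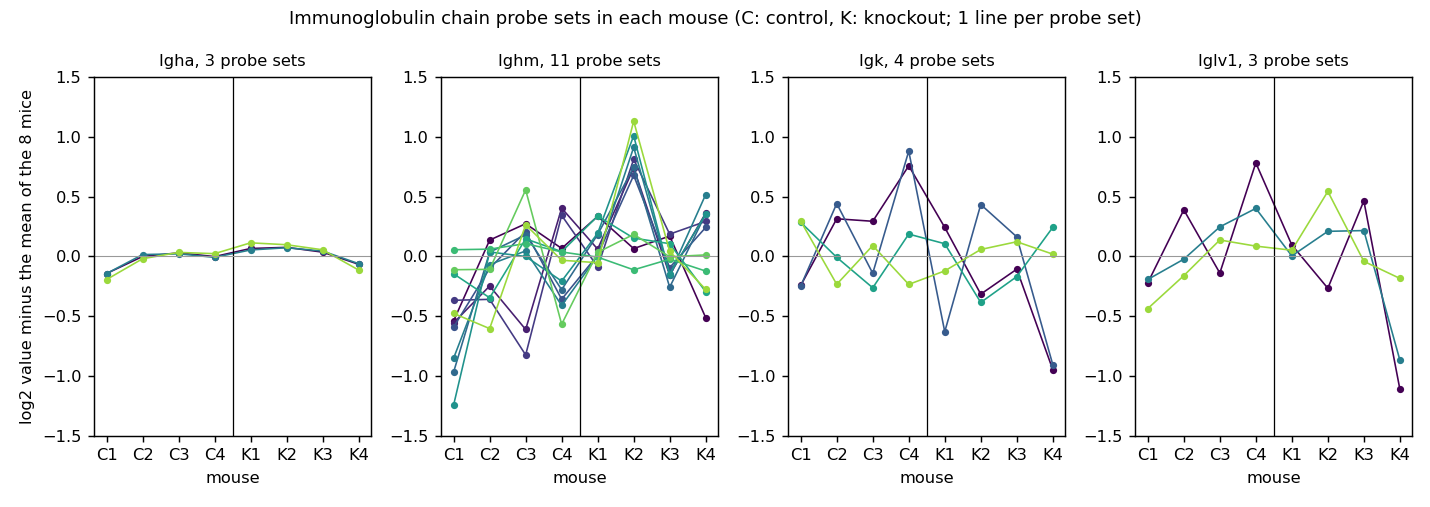
Log2 value minus the mean of the 8 mice for the probe sets of Igha, Ighm, Igk and Iglv1, with 1 line per probe set and mice on the horizontal axis (C for control, K for knockout). The 3 Igha lines stay near 0, 8 of the 11 Ighm lines have their highest knockout in K2, and the 3 Iglv1 lines have their lowest knockout in K4.

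Signals that induce IgA or attract its cells gave no changed gene. Of 23 genes 21 were measured, 0 passed in limma, 15 were above 0 and the median was 0.02. Cxcr4, the receptor that guides B cells and plasma cells, was at 0.59 (adjusted p = 0.729 in limma), with 7.06 in control 4 and 7.22 in knockout 2 as the highest values of their groups. The cytokine Il6 was at -0.18 at a dim level. Ccl25, the chemokine by which the small intestine draws IgA cells, was at 0.13 and the retinal dehydrogenase Aldh1a2 at -0.11. Of 12 genes of the germinal centre and class switch 10 were measured, 0 passed in limma, 6 were above 0 and the median was 0.02. Gcsam (0.16), Ung (-0.12), Cd83 (0.21) and Rgs13 (0.22) had the smallest p there.

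Around Pigr, 17 of 19 genes of IgA transport and of its known control were measured. None passed in limma (0 of 17), and 1 had an unadjusted p under 0.05, against 7.13% of all probe sets. Of the 17, 12 were above 0 and the median was 0.06. The receptor Il17ra, through which IL-17 induces Pigr, was at 0.23 (adjusted p = 0.625 in limma). Its brighter probe set read 7.02, 7.15, 7.23 and 7.23 in the controls and 7.39, 7.53, 7.36 and 7.27 in the knockouts. These groups did not overlap, as in 4.43% of all probe sets, and this was 1 of the 17 genes. The dimmer probe set of Il17ra gave 0.17 and its groups overlapped, with knockout 4 (6.34) under the lowest control (6.35). The vesicle GTPase Rab3d was at -0.16, the NF-kB subunit Relb at 0.11, and the kinase Yes1, which promotes IgA transport, at 0.15. Gut epithelium markers were above 0 in 11 of 12 genes with 0 passing in limma. Their mean level was 12.56 to 12.65 in the controls and 12.58 to 12.81 in the knockouts, with knockout 4 the lowest knockout, as it was for Pigr. Krt20, an intermediate filament protein, was at 0.22 and Vil1 at 0.19. Their part in the values of Pigr was not tested.

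The order of mice was also read in markers of other cell types, with no test of a difference between lists. In the list of follicle epithelium and follicular dendritic cells, all 12 genes were measured, 0 passed in limma, and control 4 (7.92) and knockout 2 (7.98) had the highest mean levels of their groups and were both highest in 6 of 12 genes, against 7.86% of all probe sets. That list shares Spib, Cr2 and Fcer2a with the B cell lists. Cxcl13, which draws B cells into follicles, read 7.72, 8.19, 7.53 and 8.41 in the controls and 7.64, 8.59, 8.03 and 8.16 in the knockouts. Cr2, the complement receptor of follicular dendritic cells and B cells, was highest in knockout 2 at 5.82. Spib and Marcksl1 led that list by p at 0.35 and 0.16. The macrophage and dendritic cell markers had their highest mean levels in control 4 (8.22, with control 2 at 8.20) and knockout 2 (8.37), and both mice were highest in 6 of 13 genes, with control 1 the lowest control in 10 of 13. Mrc1, at 0.21, was highest in knockout 4, and Flt3 was at -0.12. T cell markers were highest in control 2 (7.33) and knockout 3 (7.61), and control 4 and knockout 2 were both highest in 2 of 16 genes, with Cd2 at 0.29 and Cd8b1 at 0.61, and 0 of 16 passed in limma. Pancreas markers were highest in control 4 and lowest in control 3, as Ms4a1 was among the controls, but in the knockouts they were highest in knockout 3. Klk1 was at -0.92 (adjusted p = 0.355 in limma) and Clps at -0.33, and 0 of 12 pancreas genes passed. The other probe sets of Klk1 gave -0.92, -0.34 and -0.09. Smooth muscle markers were highest in knockout 1 (9.73), with knockout 3 nearly level (9.72). Among the 6 B cell surface probe sets, knockout 1 was the lowest knockout in 5 and knockout 4 in 1, and knockout 3 was never the lowest. Synm, at 0.40, was highest in knockout 1, and Actg2, at 0.52, was highest in knockout 3. Of the smooth muscle genes 0 of 10 passed in limma. The part of these tissues in the B cell values was not tested.

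The genes whose pattern over the 8 mice came closest to Cd79a were found by the mean absolute difference between both genes' deviations from their own means. That difference was 0.093 for the tetraspanin Tspan32, 0.10 for the chemokine-like Cklf and 0.11 for the protein kinase C gene Prkcb. It was 0.11 for the adaptor Samsn1 and 0.11 for the GTPase activator Arhgap25, whereas a gene with no variation would give 0.26. The 2 closest were dim: Tspan32 read between 4.09 and 4.78 and Cklf between 4.52 and 5.14, below the array medians in all 8 mice. With Ms4a1 as the reference, a choice made after the values were seen, the 5 closest were Cxcr4 (0.13), Ighm (0.14), Ighg3 (0.15), H2-Ob (0.16) and Ighv14-2 (0.19), against 0.49 for a gene with no variation. Jchain and Pigr varied by less than 0.5 between their lowest and highest mouse, and no likeness was computed for them.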

How the data were processed

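The authors deposited 1 table of log2 expression values, a value per probe set and array, for 8 Affymetrix arrays. The log2 scale was read from the values, which ran from 2.55 to 14.83. Partek 6.4 is listed in the submitters' processing notes without a role, and how background was corrected and arrays were normalized is not given in the sources used here. Arrays have no sequencing depth; their number sets how precise a mean can be.

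Of 45101 probe sets 64 array controls were left out. GEO's platform annotation gave 34945 of the rest 1 symbol, 932 several and 9160 none, and a gene was represented by its brightest probe set. Knockout minus control was tested two-sided in R 4.3.3 by limma 3.58.1 (lmFit, then eBayes), with Benjamini-Hochberg adjustment over all 45037 probe sets and a threshold of 0.05. The script was tested on simulated data. Figures used matplotlib 3.10.9. Values were given as mean ± SD. The p-values set the difference of group means against the spread between these samples, which eBayes moderates over all probe sets.

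The genes and lists were chosen with earlier results of these data known. By rule, every member was named, then up to 4 genes of smallest p in each pathway list, up to 2 in each marker list and the 5 closest in pattern. Fcmr, Cxcr5, Cxcl13, Cr2, Pax5, Pik3ap1, Xbp1 and Sdc1 were added after their values were seen. The replicate numbers are not tied to litters in the labels, so the fit without a block is reported. Alternatives were a replicate block, repeated quantile normalization, median centring, a minimum mean of 5, a floor at 5, other variance priors, array weights, an ordinary linear model, averaged probe sets per gene, and arrays left out.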

Additional observations from a re-analysis of the deposited data

Results flagged for a closer look

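In 100 groups of 4 mice (each named gene's probe set in each group), 9 had a highest or lowest mouse whose gap to the next took up most of the group's range, past Dixon's critical value for 4 values. Chance flags about 1 in 20 such groups when the groups are independent. Of the 9, 5 were among the 24 groups of the B cell and IgA genes and 4 among the other 76. All groups came from the same mice and some probe sets read the same gene, so they are not independent. Many of the other genes were named for their small p, which favours a small spread within groups. These counts therefore cannot show an excess of flags, either over chance or in the B cell and IgA genes. Among knockouts, Cd79a was 9.02 in knockout 2, with the next mouse at 8.26. Knockout 4 stood low in Jchain at 13.38, with the next mouse at 13.53, and in the dimmer Pigr probe set at 13.82, with the next at 14.05. Among controls, control 4 stood high in the dimmer probe sets of Ms4a1 at 5.15 (next 4.49) and Cd22 at 5.12 (next 4.74). Of the other genes, Derl3 was high in control 4 at 8.87 and Krt20 low in control 4 at 13.34. Il6 was low in knockout 4 at 3.14, and the pancreas gene Clps was high in knockout 3 at 13.49. The gaps of Jchain and Clps passed the critical value only narrowly.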

How the results depend on the processing

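None of the 12 probe sets passed in any of 18 alternative fits (0 in each); the lowest adjusted p over them was 0.631 in limma, for array weights. The count over all probe sets was 19, and it was 4 with values under 5 set to 5, 2 in an ordinary linear model and 12 without control 4 and knockout 2, a fit chosen after seeing the data. With arrays left out singly that count ran from 13 to 20. With the replicate number as a block the count was 24, and 0 of the 12 probe sets passed. Deviations of mice with the same number correlated between -0.18 and 0.076 across probe sets, and the numbers were not taken to pair the mice; no control was closest to the knockout of its own number (0 of 4). Pigr, Pou2af1, Cd79b, Ms4a1 and Cd22 kept their sign in every alternative run. Ms4a1 ran from 0.38 to 0.86, Cd79b from 0.20 to 0.52 and Cd22 from 0.16 to 0.44, each lowest without knockout 2, and Pou2af1 from 0.16, without control 1, to 0.38. Pigr ran from 0.061 to 0.16. The genes near 0 did not. Jchain was -0.0104 with repeated quantile normalization and -0.0163 without control 2 and knockout 3. Mzb1 was 0.0566 with array weights, 0.0436 without control 2 and knockout 3 and 0.0300 without control 4 and knockout 2. Tnfrsf17 was 0.0325 with array weights and 0.0165 without control 4 and knockout 2. With single arrays left out, Jchain ran from -0.0074 to 0.0514, Mzb1 from -0.160 to 0.0805, Tnfrsf17 from -0.0978 to 0.0643 and Cd79a from -0.0880, without knockout 2, to 0.263, without control 4. The cause of these sign changes was not tested.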
